A study of Homo sapiens with 9 samples.

Results

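Ligands through which a tumor cell engages T cells, natural killer cells and macrophages were followed in RNA sequencing libraries of cetuximab-sensitive and cetuximab-resistant colorectal cancer cells. The 10 genes were taken by name as known ligands of immune checkpoint and natural killer cell receptors, by a rule that names them and uses no measured value, out of 58920 genes in the count tables. They were CD274, CD47, CD276, PVR, NECTIN2, ULBP1, ULBP2, ULBP3, LGALS9 and TNFRSF14. This set was chosen with earlier results of these data known. LIM1215 is a human colorectal cancer cell line without RAS mutation that responds to cetuximab, an antibody against the EGF receptor. LIM1215-R1 and LIM1215-R2 are cell populations derived independently from it under rising cetuximab doses over months, and LIM1215-parental was kept alongside them without the antibody. All cells were sequenced untreated in basal culture, as 3 libraries per line that the study calls technical replicates. The p-values below therefore measure the spread between these libraries and not between separately selected populations. Each resistant line is a mixed population, in which the study found an HRAS mutation in part of the cells. In such bulk RNA, a change in the share of cells carrying a transcript and a change in RNA per cell cannot be told apart.

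NKG2D is an activating receptor of natural killer cells and cytotoxic T cells. Its ligands are the MHC class I-like proteins of the ULBP and RAET1 family and MICA and MICB, which are scarce on resting epithelium and are induced by cellular stress. PVR (CD155) and NECTIN2 (CD112) are adhesion molecules of the nectin family that bind the activating receptor CD226 and the inhibitory receptor TIGIT. CD274 encodes PD-L1, the ligand of the inhibitory receptor PD-1 on T cells, and CD47 restrains phagocytosis by binding SIRPα on macrophages. CD276 encodes B7-H3, a B7 family protein, LGALS9 encodes galectin-9, which binds TIM-3, and TNFRSF14 encodes HVEM, which binds BTLA, CD160 and LIGHT.

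ULBP1, ULBP2 and ULBP3 lie in a single gene cluster on chromosome 6, at chr6:149883179-150069121 in GRCh38, together with RAET1E, RAET1G, RAET1L and several pseudogenes. The 250 bases upstream of the annotated start are shown for ULBP1, ULBP2 and RAET1L, whose counts rose in both resistant lines, and for ULBP3, for which no difference was called. The sequences are from RefSeq on GRCh38.p14 and are written 5′ to 3′ on the strand of the gene. Capitals mark the matches, on either strand, to the letters searched, which were TGANTCA for AP-1, TGACGTCA for CRE, GGGCGG for the GC box, GAAA, any 2 bases and GAAA for the ISRE, TTCNNNGAA for the GAS, CACGTG for the E-box, CCAAT, and GGGNNTTCC for kappa B.
ULBP1, chr6:149963693-149963942, plus strand: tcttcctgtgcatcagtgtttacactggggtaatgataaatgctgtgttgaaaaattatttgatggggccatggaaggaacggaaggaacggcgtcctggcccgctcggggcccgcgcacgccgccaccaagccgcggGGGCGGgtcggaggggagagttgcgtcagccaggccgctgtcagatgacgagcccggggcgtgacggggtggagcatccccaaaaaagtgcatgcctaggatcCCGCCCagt
ULBP2, chr6:149941764-149942013, plus strand: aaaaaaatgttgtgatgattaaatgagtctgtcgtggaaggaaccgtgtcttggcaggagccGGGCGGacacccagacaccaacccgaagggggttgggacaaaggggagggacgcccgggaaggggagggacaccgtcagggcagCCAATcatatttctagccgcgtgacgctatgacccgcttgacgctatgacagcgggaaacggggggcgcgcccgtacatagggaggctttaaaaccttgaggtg
RAET1L, chr6:150025533-150025782, minus strand: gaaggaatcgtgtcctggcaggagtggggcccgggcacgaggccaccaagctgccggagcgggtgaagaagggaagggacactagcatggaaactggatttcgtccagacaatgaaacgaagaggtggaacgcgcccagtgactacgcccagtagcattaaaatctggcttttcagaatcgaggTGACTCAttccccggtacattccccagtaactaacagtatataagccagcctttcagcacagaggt
ULBP3, chr6:150069122-150069371, minus strand: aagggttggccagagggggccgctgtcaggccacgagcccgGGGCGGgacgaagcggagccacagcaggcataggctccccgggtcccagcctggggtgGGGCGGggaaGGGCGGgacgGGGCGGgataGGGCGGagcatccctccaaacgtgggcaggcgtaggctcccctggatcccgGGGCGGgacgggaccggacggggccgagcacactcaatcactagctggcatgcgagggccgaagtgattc
The ULBP1 window held 2 GC boxes, the ULBP2 window held 1 GC box and 1 CCAAT, and the ULBP3 window held 6 GC boxes. The RAET1L window held 1 AP-1 match, at bases -66 to -60 from the start. Of 35116 promoters of the same length, 42.6% held a GC box, 32.0% a CCAAT and 6.57% an AP-1 match. No motif of those searched was shared by the windows of ULBP1, ULBP2 and RAET1L. The windows of RAET1E and RAET1K, whose counts also rose in both resistant lines, were not examined for this. Such matches describe letters in these windows and say nothing about binding, and the motif search was added after the counts were known.

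Total counts per library lay between 13737416 and 18725014. A level is given in CPM, the counts scaled to a common library total with a TMM correction for composition, and 3 counts corresponded to 0.158 to 0.217 CPM in a library. Of 10 markers of colorectal epithelium, 9 were at or above 1 CPM in each line, while KRT20 was at 0 in all 9 libraries. The summed level of these markers differed between the lines, from 12587 to 12936 CPM for LIM1215-parental, 16122 to 16418 CPM for LIM1215-R1 and 14599 to 15005 CPM for LIM1215-R2. KRT8 and KRT18 had the highest levels in this sum, at 5717 and 4131 CPM in LIM1215-parental and 7884 and 5499 CPM in LIM1215-R1. By mean CPM, KRT8, KRT18, KRT19 and VIL1 were higher in both resistant lines, whereas EPCAM, CDH1, CDX1, CDX2 and LGALS4 were lower. None of 12 leukocyte markers reached 1 CPM in any line, their sum was at most 0.368 CPM in a library, and PTPRC, CD3E, NKG7 and KLRD1 had 0 counts throughout. The part of these differences in epithelial marker levels in the results was not tested.

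All 10 ligand genes had at least 10 counts over the 9 libraries and were tested among 19102 genes with the quasi-likelihood test of edgeR and the adjustment of Benjamini and Hochberg. An adjusted p of at most 0.01 was taken as a call. In LIM1215-R1 against LIM1215-parental, 3 ligands were higher (PVR, ULBP1 and ULBP2) and 1 was lower (NECTIN2), where 14% of all tested genes were called higher and 13.4% lower. The same 3 were higher and NECTIN2 was lower in LIM1215-R2, where 12.3% of all genes were called higher and 11.6% lower. Both resistant lines are compared with the same parental libraries, so these calls are not independent. ULBP1 and ULBP2 also passed the study's further threshold for a differentially expressed gene (DEG), a log2 fold change of 1.5 or more in size, as did 5.14% of all genes in LIM1215-R1 and 4.82% in LIM1215-R2. Between the resistant lines, NECTIN2 and ULBP2 were lower in LIM1215-R2 and no ligand was called higher by edgeR or DESeq2, against 3.77% of all genes lower, 3.39% higher and 0.764% passing the DEG threshold. At an unadjusted p under 0.05, 1 ligand was higher there, CD274. The median log2 fold change of the 10 ligands was 0.27 in LIM1215-R1 and 0.16 in LIM1215-R2, against -0.01 and -0.00 over all genes tested.

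**Figure D1:**
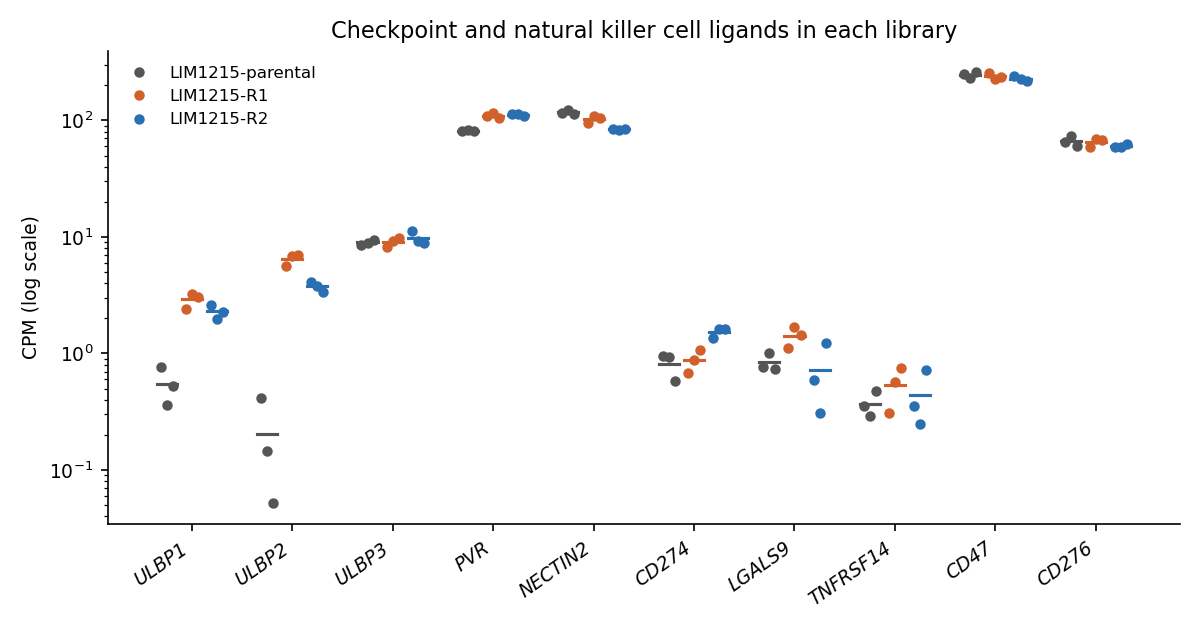
CPM on a log scale of the 10 ligand genes, with a point for each of the 3 libraries per line and a bar at the mean of the line. ULBP1 and ULBP2 separated LIM1215-parental from both resistant lines, PVR and NECTIN2 shifted by less in opposite directions, and the points of the remaining ligands lay close together or overlapped in most comparisons.

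**Figure D2:**
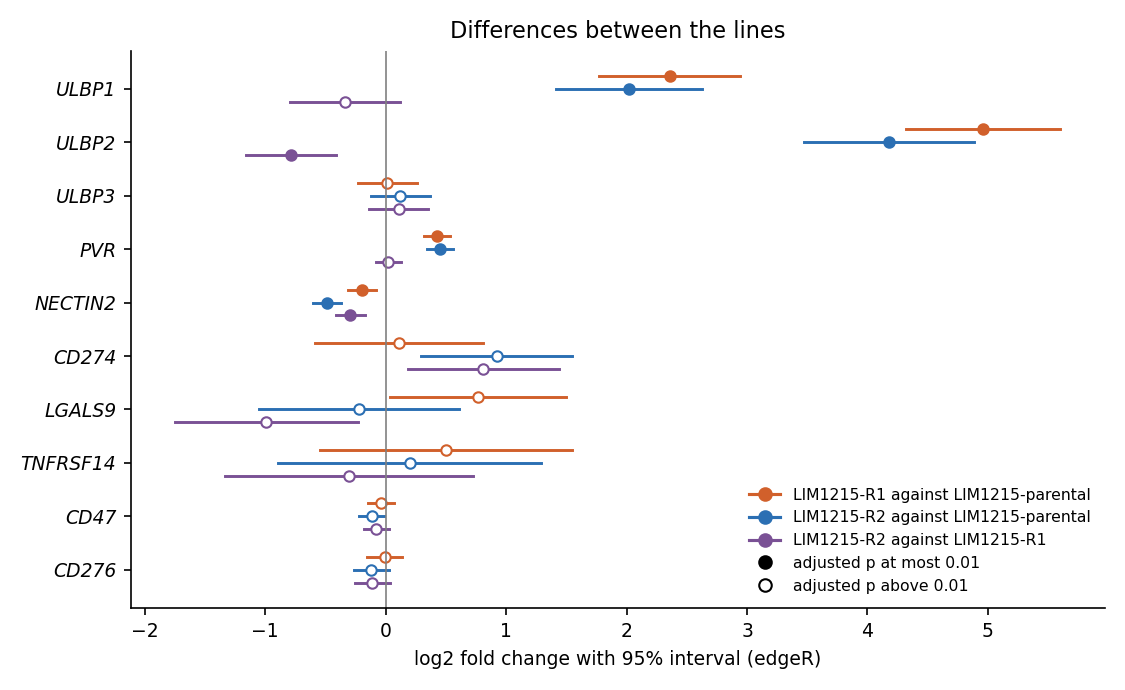
log2 fold change of each ligand gene in 3 comparisons, with the 95% interval of the edgeR estimate as a bar. Filled points have an adjusted p of at most 0.01, which holds for ULBP1, ULBP2, PVR and NECTIN2 against LIM1215-parental and for ULBP2 and NECTIN2 between the resistant lines.

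The largest change among the ligands was that of ULBP2, a glycolipid-anchored NKG2D ligand (chr6:149942014-149949235, plus strand). ULBP2 stood at 0.413, 0.144 and 0.0525 CPM in the parental libraries, which is 7, 2 and 1 counts. It reached 5.64, 6.84 and 7.01 CPM in LIM1215-R1 and 4.10, 3.78 and 3.40 CPM in LIM1215-R2. Every resistant library was thus above every parental library, and every LIM1215-R1 library was above every LIM1215-R2 library. The log2 fold change of ULBP2 was 4.96 ± 0.311 (SE, n = 3 per line), a 31.2-fold difference, in LIM1215-R1 (adjusted p = 4.15e-13). It was 4.18 ± 0.343, an 18.1-fold difference, in LIM1215-R2 (adjusted p = 1.06e-10). The size of these estimates rests on few parental counts, and without parental replicate 1 the log2 fold changes were 6.04 and 5.25. ULBP2 was lower in LIM1215-R2 than in LIM1215-R1 by a log2 fold change of -0.78 ± 0.181 (adjusted p = 0.00358), a call that was lost in 5 of the 9 fits with a library left out.

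ULBP1, a second glycolipid-anchored NKG2D ligand, lies next to ULBP2 (chr6:149963943-149973715, plus strand). ULBP1 measured 0.767, 0.361 and 0.525 CPM in the parental libraries, 2.39, 3.26 and 3.07 CPM in LIM1215-R1 and 2.62, 1.98 and 2.29 CPM in LIM1215-R2. The parental and resistant libraries did not overlap, and the ranges of the resistant lines did. The log2 fold change was 2.36 ± 0.285, or 5.12-fold, in LIM1215-R1 (adjusted p = 1.54e-07) and 2.02 ± 0.296, or 4.06-fold, in LIM1215-R2 (adjusted p = 3.57e-06). Between the resistant lines no difference was called for ULBP1, with a log2 fold change of -0.34 and a 95% interval of -0.79 to 0.12.

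ULBP3, at the other end of the cluster (chr6:150061053-150069121, minus strand), was the most counted of the 3 ULBP genes in the parental line. Its levels were 8.62, 8.89 and 9.51 CPM in LIM1215-parental, 8.28, 9.23 and 9.82 CPM in LIM1215-R1 and 11.2, 9.23 and 8.95 CPM in LIM1215-R2. All 3 groups overlapped. The log2 fold change was 0.01 in LIM1215-R1, with a 95% interval of -0.23 to 0.26, and 0.12 in LIM1215-R2, with an interval of -0.12 to 0.37. Changes of the size seen for ULBP1 and ULBP2 lie outside these intervals.

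Of the other genes of the cluster, RAET1L, RAET1E and RAET1K were also called higher in both resistant lines. RAET1L, which encodes a further glycolipid-anchored NKG2D ligand (ULBP6), had 2, 4 and 2 counts in the parental libraries, 56, 35 and 34 in LIM1215-R1 and 27, 23 and 30 in LIM1215-R2. Its log2 fold change was 3.94 ± 0.403 in LIM1215-R1 (adjusted p = 7.34e-09) and 3.30 ± 0.435 in LIM1215-R2 (adjusted p = 6.33e-07). RAET1E, the gene of the ligand ULBP4, had 10, 2 and 10 counts in LIM1215-parental, 22, 23 and 16 in LIM1215-R1 and 24, 24 and 29 in LIM1215-R2, so that the parental libraries lay below all others. RAET1E was called higher in LIM1215-R1 (log2 fold change 1.51, adjusted p = 0.00219) and in LIM1215-R2 (log2 fold change 1.85, adjusted p = 0.000198). The transcribed pseudogene RAET1K was also called higher, by 1.13 in LIM1215-R1 and 1.24 in LIM1215-R2 on the log2 scale. RAET1G, the gene of ULBP5, had at most 5 counts in any library and was not called. PPP1R14C, the nearest tested gene beyond ULBP3, was not called in either line, with log2 fold changes of -0.10 and 0.13. Within the 185.943 kb of the cluster, the called genes thus lay between RAET1E and RAET1L, and ULBP3 lay beyond them. Among them, RAET1G and the tested pseudogenes LOC100240714 and BTF3P10, with 20 and 29 counts in all, were not called.

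**Figure D3:**
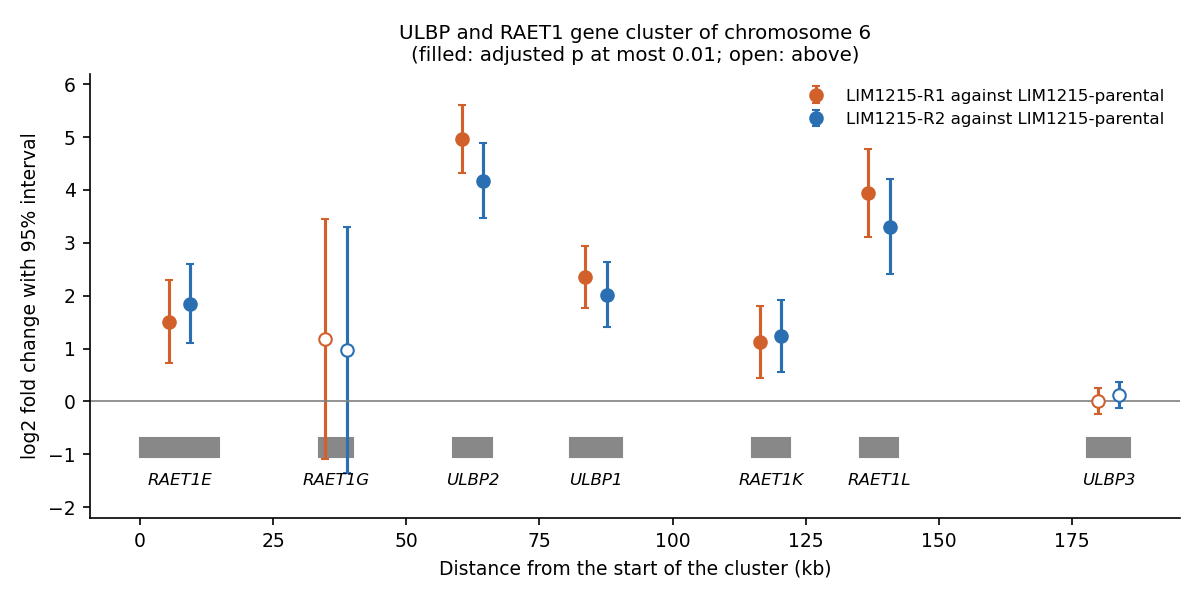
log2 fold change against LIM1215-parental, with 95% intervals, of the ULBP and RAET1 genes that were tested, by distance in kb from the start of the cluster. Grey boxes mark the genes, filled points passed an adjusted p of 0.01, and ULBP3 at the right end and RAET1G with its wide interval are the open ones.

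These genes are alike in sequence, and a read from a stretch that several of them share cannot be placed in a single gene by its letters. Of the 100-base windows of the annotated ULBP2 transcripts, 12.1% also occurred in RAET1L or RAET1G, and 11.8% of the RAET1L windows occurred in ULBP2 or RAET1G. For ULBP1 the shared part was 1.13%, with RAET1K, and for ULBP3 it was 4.15%. The part of the shared sequence in the counts of ULBP2 and RAET1L was not tested.

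MICA, an NKG2D ligand encoded in the major histocompatibility complex, measured 8.89 ± 1.56 CPM (SD) in LIM1215-parental, 17.7 ± 1.51 CPM in LIM1215-R1 and, in LIM1215-R2, 12.9 ± 0.764 CPM. It was called higher in LIM1215-R1 (log2 fold change 0.99, adjusted p = 8.26e-08) and in LIM1215-R2 (0.54, adjusted p = 0.000792). The whole span of MICA also occurs on alternate sequences of hg38, and their part in its counts was not tested. MICB had 0 counts in every parental library and at most 5 counts in any other. Summed over the 8 genes of NKG2D ligands, the level was 19.3 ± 1.56 CPM in LIM1215-parental, 40.3 ± 0.880 CPM in LIM1215-R1 and, in LIM1215-R2, 32.4 ± 2.15 CPM. The makeup of this sum shifted along with its size. ULBP3 made up 46.8% of the parental sum, 22.6% in LIM1215-R1 and 30.2% in LIM1215-R2. ULBP1, ULBP2 and RAET1L together made up 4.91%, 29.7% and 23.8%, and MICA with MICB 45.8%, 44.2% and 40.6%. These are shares of counts, which depend on gene length as well as on level. Per kb of annotated exons, the LIM1215-R1 levels were 4.87 CPM for ULBP2, 4.59 for MICA, 2.93 for ULBP3, 1.92 for RAET1L and 0.905 for ULBP1.

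**Figure D4:**
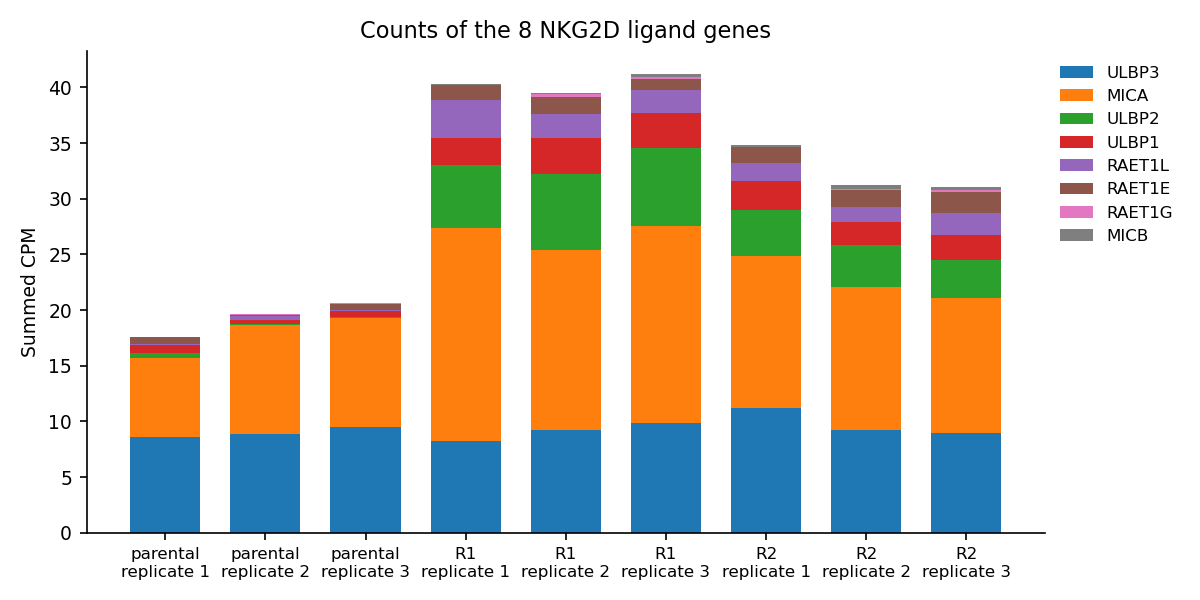
Summed CPM of the 8 NKG2D ligand genes in each of the 9 libraries, stacked by gene. The parental sums were 17.6 to 20.6 CPM and consisted mainly of ULBP3 and MICA, whereas ULBP2, ULBP1, RAET1L and RAET1E took a visible part of the bars in all LIM1215-R1 and LIM1215-R2 libraries.

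The 2 nectin family ligands moved in opposite directions in the resistant lines. PVR (chr19:44643910-44666162, plus strand) measured 81.0, 83.1 and 81.5 CPM in the parental libraries, 109, 116 and 106 CPM in LIM1215-R1 and 113, 114 and 109 CPM in LIM1215-R2. Every resistant library exceeded every parental library, and the resistant lines overlapped. The log2 fold change of PVR was 0.43 ± 0.0527 in LIM1215-R1 (adjusted p = 2.08e-07) and 0.45 ± 0.0526 in LIM1215-R2 (adjusted p = 8.52e-08). Between the resistant lines it was 0.02, with a 95% interval of -0.08 to 0.13. Of the PVR windows of 100 bases, 17.3% also belonged to annotated transcripts of CEACAM19 or of an overlapping gene model, and the part of these in the counts was not tested.

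NECTIN2 lies farther along chromosome 19 (chr19:44846297-44889223, plus strand). NECTIN2 measured 117, 123 and 112 CPM in LIM1215-parental, 94.9, 109 and 104 CPM in LIM1215-R1 and 83.7, 82.9 and 84.9 CPM in LIM1215-R2. The 3 lines formed descending groups without overlap. Its log2 fold change was -0.49 ± 0.0566 in LIM1215-R2 (adjusted p = 7.57e-08) and -0.29 ± 0.0570 between LIM1215-R2 and LIM1215-R1 (adjusted p = 0.000711). In LIM1215-R1 against LIM1215-parental it was -0.19 ± 0.0558 (adjusted p = 0.00691), a call that was lost in 6 of the 9 fits with a library left out, where the adjusted p ranged from 0.00179 to 0.0572. The ratio of PVR to NECTIN2 CPM was 0.674 to 0.724 in the parental libraries, 1.01 to 1.15 in LIM1215-R1 and 1.28 to 1.38 in LIM1215-R2. The neighbors of NECTIN2 did not share its pattern. BCAM, which encodes a laminin receptor, was higher in LIM1215-R1 (log2 fold change 0.94, adjusted p = 3.59e-10) and lower in LIM1215-R2 than in LIM1215-R1 (-1.10, adjusted p = 1.96e-10), and TOMM40, a mitochondrial import gene, was called higher in LIM1215-R1 (0.16, adjusted p = 0.00548) and not in LIM1215-R2 (0.06).

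**Figure D5:**
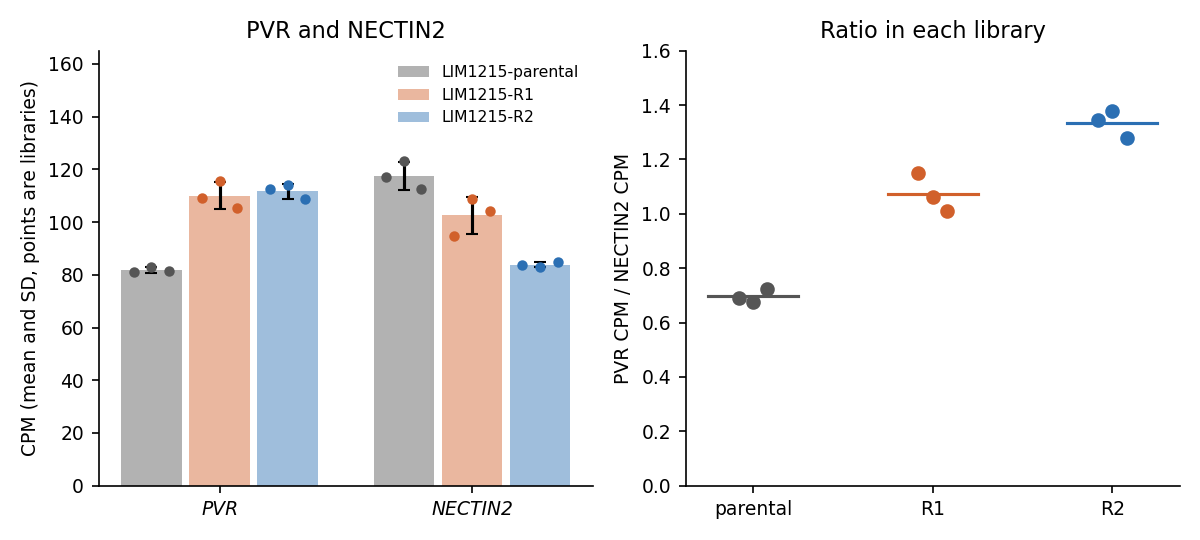
Left, mean CPM of PVR and NECTIN2 in each line with SD bars and the 3 libraries as points. Right, the ratio of PVR to NECTIN2 CPM in each library with the mean of the line as a bar, which lay below 1 in all parental libraries and above 1 in all resistant ones.

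CD274, LGALS9 and TNFRSF14, the genes of PD-L1, galectin-9 and HVEM, had low counts in all lines. CD274 (chr9:5450542-5470554, plus strand) had 16, 13 and 11 counts in the parental libraries, 11, 14 and 17 in LIM1215-R1 and 23, 26 and 25 in LIM1215-R2. In CPM these were 0.944, 0.939 and 0.578, then 0.675, 0.879 and 1.06, then 1.37, 1.61 and 1.63. The LIM1215-R2 libraries lay above all other libraries, and LIM1215-R1 overlapped with LIM1215-parental. The log2 fold change of CD274 in LIM1215-R2 was 0.92 ± 0.306 with an adjusted p of 0.0213 in edgeR, which did not pass the threshold of 0.01, and the adjusted p ranged from 0.00986 to 0.128 over the alternative settings. In LIM1215-R1 the log2 fold change was 0.11, with a 95% interval of -0.59 to 0.80. CD274's neighbors PLGRKT and RIC1 were not called in either line.

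LGALS9 (chr17:27631188-27649560, plus strand) measured 0.767, 1.01 and 0.735 CPM in LIM1215-parental, 1.10, 1.69 and 1.44 CPM in LIM1215-R1 and 0.595, 0.310 and 1.24 CPM in LIM1215-R2. The LIM1215-R1 libraries were all above the parental ones. Of the LIM1215-R2 libraries, replicates 1 and 2 lay below the parental ones and replicate 3 lay within the range of LIM1215-R1. None of its comparisons was called, with log2 fold changes of 0.77 (adjusted p = 0.0983), -0.22 (adjusted p = 0.739) and -0.99 (adjusted p = 0.0805) for LIM1215-R1, LIM1215-R2 and LIM1215-R2 against LIM1215-R1. Without LIM1215-R2 replicate 3 the last of these was -1.62 and passed, with an adjusted p of 0.00979. LGALS9 shared 5.70% of its 100-base windows with copies such as LGALS9B and LGALS9C, which had 21 and 29 counts in all. Of its nearest tested neighbors, KSR1 was not called, and NOS2, the gene of inducible nitric oxide synthase, was called higher in LIM1215-R1 at 7, 16 and 4 counts against 1, 0 and 3 (adjusted p = 0.00873).

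TNFRSF14 (chr1:2554234-2563829, plus strand) was the least counted ligand, with 4 to 12 counts per library. Its levels were 0.354, 0.289 and 0.473 CPM in LIM1215-parental, 0.307, 0.565 and 0.751 CPM in LIM1215-R1 and 0.357, 0.248 and 0.719 CPM in LIM1215-R2, and all groups overlapped. Its log2 fold changes were 0.50 and 0.20, and the 95% interval in LIM1215-R1 reached from -0.55 to 1.55. The whole span of TNFRSF14, 100% of its bases, also occurs at 99% identity or more on an alternate sequence of hg38, as does that of its neighbor PANK4, a gene of coenzyme A metabolism with 44 counts in all. For the other 9 ligands this share was 0 except for ULBP3, at 3.09%. Whether alternate sequences were in the index used for alignment is not given in the sources used here, and their part in the low counts of TNFRSF14 was not tested.

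CD47 and CD276 were well expressed and no difference was called in any comparison. CD47 (chr3:108043091-108091031, minus strand) measured 248, 232 and 259 CPM in LIM1215-parental, 254, 228 and 237 CPM in LIM1215-R1 and 240, 225 and 218 CPM in LIM1215-R2, with overlapping groups. Its log2 fold change was -0.04 in LIM1215-R1, with a 95% interval of -0.14 to 0.07, and -0.12 in LIM1215-R2, with an interval of -0.22 to -0.01 and an adjusted p of 0.0840 in edgeR. CD276 (chr15:73683944-73714514, plus strand) measured 65.3, 73.5 and 60.0 CPM in LIM1215-parental, 59.4, 69.2 and 68.5 CPM in LIM1215-R1 and 59.5, 59.7 and 63.2 CPM in LIM1215-R2, again with overlapping groups. Its log2 fold changes were -0.01 and -0.12, and the 95% intervals together covered -0.27 to 0.14. The neighbors NPTN of CD276 and IFT57 of CD47 were not called. The antisense gene LOXL1-AS1, 202.954 kb beyond CD276, was called higher by 2.59 in LIM1215-R1 and 2.08 in LIM1215-R2 on the log2 scale. LOXL1-AS1 had 6, 1 and 3 counts in the parental libraries, so the size of these estimates rests on few counts.

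To compare levels between genes, CPM was divided by the length of the annotated exons in kb. This length joins the exons of all annotated transcripts of a gene. The order below therefore depends on the annotation, and which transcripts were present was not tested. In LIM1215-parental, NECTIN2 at 31.4 CPM per kb led the ligands, and its libraries overlapped with those of CD47. They were followed by CD276 at 12.1, PVR at 7.85 and ULBP3 at 2.89 CPM per kb. CD274, ULBP1, ULBP2, LGALS9 and TNFRSF14 were all at or below 0.200 CPM per kb, and the ULBP2 libraries, with 10 counts in all, spanned those of the other 4. In LIM1215-R2, CD47 at 27.6 CPM per kb stood above NECTIN2 at 22.4 without overlap, and PVR at 10.7 overlapped with CD276 at 11.1. ULBP2 moved furthest in this order, from 0.152 CPM per kb in LIM1215-parental to 4.87 in LIM1215-R1, above ULBP3 at 2.93, and to 2.82 in LIM1215-R2, where it overlapped with ULBP3 at 3.15. ULBP1 stayed below both in the resistant lines, at 0.905 and 0.715 CPM per kb.

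Among 13 other natural killer cell ligands, 10 were tested, and RAET1L, RAET1E and MICA were the 3 called higher in each resistant line, which is 30% against 14% of all genes in LIM1215-R1 and 12.3% in LIM1215-R2. NCR3LG1, which encodes B7-H6, the ligand of NKp30, was the only other call, at 164 ± 4.40 CPM in LIM1215-parental and lower in LIM1215-R1, at 125 ± 4.74 CPM, and in LIM1215-R2, at 138 ± 5.87 CPM (log2 fold changes -0.39 and -0.25). MICA, MICB, HLA-E, HLA-G and BAG6 lie on alternate sequences of hg38 over 100% of their spans. HLA-E, ordinarily an abundant transcript, had 1 count in all 9 libraries together and BAG6 had 25, and the part of the alternate sequences in the counts of these genes, MICA included, was not tested.

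Of 14 other checkpoint ligands, 8 were tested, with 3 called higher and 4 lower in LIM1215-R1 and 3 of each in LIM1215-R2. Over all genes, 14% were called higher and 13.4% lower in LIM1215-R1, and 12.3% and 11.6% in LIM1215-R2. NECTIN4, a nectin family ligand of TIGIT, rose from 0.744 CPM in LIM1215-parental to 4.98 CPM in LIM1215-R1 and, in LIM1215-R2, 1.99 CPM, a difference of 6.49-fold (adjusted p = 1.96e-10) and 2.60-fold (adjusted p = 0.000147). CEACAM1, an adhesion molecule that binds itself on other cells, rose from 4.79 to 16.4 and 12.6 CPM (adjusted p = 1.27e-12 and 3.10e-10). CD24, the ligand of Siglec-10 on macrophages, fell from 186 to 103 and 87.3 CPM, with log2 fold changes of -0.85 and -1.09. HHLA2, a B7 family ligand, was called lower in both lines, at 3.66 CPM in LIM1215-parental, 1.82 CPM in LIM1215-R1 and, in LIM1215-R2, 0.812 CPM. NECTIN3 was lower in LIM1215-R1, at 53.9 against 83.9 CPM (adjusted p = 2.16e-08), and was higher in LIM1215-R2 at 71.9 CPM than in LIM1215-R1 (log2 fold change 0.42, adjusted p = 0.000119). PDCD1LG2, the gene of PD-L2, and CD80 and CD86, the ligands of CD28 and CTLA-4, had 0 counts in all libraries.

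All 14 regulators of the ligands were tested, and the same number, 3 higher and 3 lower, was called in each resistant line. This is 21.4% in each direction, against 14% higher and 13.4% lower over all genes in LIM1215-R1 and 12.3% and 11.6% in LIM1215-R2. IFNGR1 and NLRC5 were called higher in both. IFNGR1, a chain of the interferon gamma receptor, was at 55.1 ± 3.93 CPM in LIM1215-parental, 108 ± 4.51 CPM in LIM1215-R1 and, in LIM1215-R2, 81.5 ± 1.92 CPM. NLRC5, the transactivator of MHC class I genes, was at 64.1, 125 and 114 CPM. CMTM6, which protects PD-L1 from degradation, was lower, with log2 fold changes of -0.43 (adjusted p = 6.13e-08) and -0.38 (adjusted p = 4.81e-07). ADAM17, a protease that sheds NKG2D ligands from the cell surface, was lower by log2 fold changes of -0.33 and -0.37, and the related protease ADAM10 was the remaining call in both lines. Of 15 receptors and binding partners of these ligands, 5 reached the count filter and PDCD1, TIGIT, CD96, KLRK1 and BTLA had 0 counts in every library. PDCD1 also lies on an alternate sequence of hg38 over 100% of its span, and the part of that sequence in its 0 counts was not tested. SIRPA, with 13 counts in the parental libraries, 1 count over those of LIM1215-R1 and 0 counts over those of LIM1215-R2, gave the only call of this list, lower in LIM1215-R2. It passed the filter only through the line in which it was high, so that this call is no evidence of a difference.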

How the data were processed

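RNA of the parental line and of both resistant lines was measured in 3 libraries per line, and libraries were grouped by their labels. The authors made stranded poly(A) libraries, aligned the reads with STAR to hg38 and assigned them to genes by the reverse strand with HTSeq 0.9.1, and the deposited tables hold these raw counts, with no normalization. The gene annotation is not given in the sources used here. Genes whose counts over the 9 libraries came to 10 or more were fitted in 1 model with edgeR 4.0.16 (TMM scaling, quasi-likelihood test, Benjamini-Hochberg adjustment, R 4.3.3), and 3 contrasts were taken. CPM used the TMM-scaled totals of these genes. SE values were derived from the test statistic. The code was tested on simulated data. Exon lengths, positions and neighbors came from GENCODE and RefSeq, shared windows from transcripts of the former, and spans on alternate sequences were found with minimap2 2.31. The named genes were the 10 ligands, up to 5 called genes of each related list with at least 1 CPM in the higher line, the nearest tested neighbors, and copies that may share reads. SIRPA, ADAM10 and genes at 0 counts were named after their values were seen. A gene of the list of regulators is not reported here. The ligands and lists were chosen with earlier results of these data known. Alternatives were other filters, scalings and thresholds, DESeq2 1.42.0, a replicate block, fits of 6 libraries and each library left out. The searches of promoter letters, shared windows and alternate sequences were added after values were seen. Counts limit the precision of CD274, LGALS9, TNFRSF14 and parental ULBP1 and ULBP2.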

Additional observations from a re-analysis of the deposited data

Results flagged for a closer look

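The change against LIM1215-parental differed between the resistant lines, by the direct edgeR test of LIM1215-R2 against LIM1215-R1 with an adjusted p of at most 0.01, for 2 of the 10 ligands and for 5 of the related genes named above. On the log2 scale, the effect in LIM1215-R2 minus that in LIM1215-R1 was -0.29 for NECTIN2, so that its decrease was larger in LIM1215-R2, and -0.78 for ULBP2, so that its increase was smaller. The difference was -1.32 for NECTIN4, -0.45 for MICA and -0.41 for IFNGR1, each of which rose less in LIM1215-R2. It was -0.24 for CD24, which was lower still in LIM1215-R2, and 0.42 for NECTIN3, which was lowest in LIM1215-R1. With 3 libraries per line, no test for outlying single libraries was made, and only fits with each library left out are given.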

How the results depend on the processing

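Over 1200 values of 24 genes in 3 comparisons, 1154 kept their side of the threshold, 27 lost the call, 19 gained it and 0 called values changed direction. A change of sign was seen for 20 values that passed the threshold neither in the reported fit nor in the alternative, among them values of CD274, CD276 and ULBP3 in LIM1215-R1 and of LGALS9 and TNFRSF14 in LIM1215-R2, and these values then lay between -0.32 and 0.13. ULBP1, ULBP2 and PVR against LIM1215-parental, and NECTIN2 in LIM1215-R2 against both other lines, kept their calls in every alternative that tested them. With at least 10 counts required in every library, ULBP1 and ULBP2 were no longer tested, and the ligands called fell to 2 in LIM1215-R1 and 1 between the resistant lines, and the DEGs among them to 0 and 0 in LIM1215-R1 and LIM1215-R2. In LIM1215-R2 against LIM1215-parental, 3 ligands were called under this filter. CD274 was among them, as it gained the call there (adjusted p = 0.00986 in edgeR). With a library left out, 1 to 2 ligands and 4 to 8 related genes were called between the resistant lines, and 0 to 1 ligands were DEGs there, which was LGALS9 without LIM1215-R2 replicate 3. The call of NECTIN2 in LIM1215-R1 was also lost with DESeq2 and with 6 libraries, and the causes were not tested. Among related genes, a left-out library ended the call of MICA between the resistant lines in 5 of 9 fits and that of HHLA2 in LIM1215-R1 in 3 of 9. With replicate number as a replicate block, 4, 4 and 2 ligands were called in the 3 comparisons, as without it. Deviations of same-numbered libraries correlated at -0.12 to 0.34 and those of other pairs at -0.33 to 0.24, so the numbers were not treated as pairs.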
